A study of Mus musculus with 47 samples.

Results

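The effect of losing the pregnane X receptor (PXR) was measured in the livers of antibiotic-treated male mice, by setting 6 Pxr-/- males against 6 Pxr+/+ males among the 47 mice of the series. At 6 months of age all 12 mice were put on drinking water with a mix of antibiotics (ATB) for 2 weeks. The mix was ampicillin at 1 g/L, neomycin at 1 g/L and vancomycin at 0.5 g/L. The mice were then killed 6 h after lights on (ZT6). They were C57BL/6J littermates. The knockout is carried from the germline in every tissue, so changes in the liver and changes reaching it from the gut or other organs cannot be told apart. Both groups received ATB. Per the study's methods each group was kept in 2 cages, and the labels do not say which mice shared a cage. The same comparison in 5 Pxr-/- and 6 Pxr+/+ control males, and in 6 and 6 ATB females, served only to test whether the effect in ATB males differed. Liver mRNA was read on a 1-color array, 1 array per mouse, and values are log2 normalized signals corrected for the wash batch of the slides.

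PXR (gene Nr1i2) is a nuclear receptor that binds bile acids, steroids and many drugs, and pairs with the retinoid X receptor on DNA. It is known for switching on the liver's detoxification genes: cytochrome P450 enzymes of the Cyp3a and Cyp2c families that oxidize drugs and steroids, enzymes that conjugate the products, and transporters that carry them in and out of hepatocytes. Nuclear receptor pairs of this kind bind repeats of a short half-site, such as AGGTCA or AGTTCA.

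The sequences just before the starts of 6 Cyp3a genes that rose are shown because these genes form a single cluster on chromosome 5 and responded by different amounts. They were read from RefSeq promoters of build GRCm38.p6, each 100 bases long and ending 100 bases before the start, in the direction of the gene, with copies of AGGTCA and AGTTCA on either strand in capitals.
Cyp3a11 (chr5:145879955-145880054, minus strand): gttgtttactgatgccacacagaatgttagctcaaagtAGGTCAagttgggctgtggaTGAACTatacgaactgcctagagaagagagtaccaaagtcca
Cyp3a16 (chr5:145469824-145469923, minus strand): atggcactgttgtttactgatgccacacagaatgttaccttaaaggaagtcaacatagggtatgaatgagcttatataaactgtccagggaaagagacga
Cyp3a41a (chr5:145720237-145720336, minus strand): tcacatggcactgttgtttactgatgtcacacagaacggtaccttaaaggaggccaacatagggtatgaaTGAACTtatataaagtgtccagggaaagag
Cyp3a59 (chr5:146079058-146079157, plus strand): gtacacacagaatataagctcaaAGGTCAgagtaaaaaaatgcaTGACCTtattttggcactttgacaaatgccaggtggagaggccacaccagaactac
Cyp3a25 (chr5:146009719-146009818, minus strand): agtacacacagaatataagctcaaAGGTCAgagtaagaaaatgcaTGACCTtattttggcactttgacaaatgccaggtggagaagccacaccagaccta
Cyp3a57 (chr5:145345069-145345168, plus strand): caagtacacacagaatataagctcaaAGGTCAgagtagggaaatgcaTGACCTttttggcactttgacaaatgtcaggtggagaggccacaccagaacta
Over the 250 bases before the start, Cyp3a59, Cyp3a25 and Cyp3a57 were between 88.9% and 94.8% identical to each other, Cyp3a16 and Cyp3a41a were 91.3% identical, and Cyp3a11 was 76.6% identical to Cyp3a16. Identity between the 2 sets ran from 53.1% to 56.6%. Cyp3a59, Cyp3a25, Cyp3a57 and Cyp3a11 each held 2 half-sites in these 250 bases, Cyp3a41a held 1 and Cyp3a16 held 0. Of all 32851 RefSeq promoters, 24.2% held at least 1 in the same length. Among genes called in the comparison described here, 17 of 51 higher (33.3%) and 20 of 128 lower (15.6%) with a promoter held 1 or more, against 24.1% of all genes. The 17 include Cyp3a genes printed above whose promoters resemble each other, so they are not independent, and enrichment was not tested. A match of letters does not show that a receptor binds there.

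Before any comparison the labels were checked. Xist was not well above background on any of the 12 arrays, and the Y-linked genes Ddx3y and Eif2s3y were well above background on all of them. Hepatocyte markers were high, with a mean log2 signal over 14 markers from 16.57 to 16.76 in Pxr-/- and from 16.78 to 16.96 in Pxr+/+ mice. The 75th percentile of the raw median intensity over gene probes was from 321 to 371.5 in Pxr-/- arrays and from 351 to 417 in Pxr+/+ arrays. Its means were 349 and 388 (2-sided exact permutation test over 924 splits, p = 0.0195), so Pxr-/- arrays were dimmer as a whole. The spike-in control probes were dimmer too, with overlap. Their log2 signal ran from 10.11 through a median of 10.21 to 10.42 in Pxr-/- arrays. In Pxr+/+ arrays it ran from 10.16 through 10.42 to 10.69. No spot of these arrays was saturated, and between 31087 and 33240 of the 56605 gene probes were well above background on each.

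The targeted gene itself was not called. Nr1i2 was read by 1 probe (mm9, chr16:38248745-38248804), at a log2 signal of 10.36 at the lowest, 11.16 at the median and 11.46 at the highest in Pxr-/- ATB males, and at 11.42, 11.59 and 12.09 in Pxr+/+ ATB males. The groups overlapped, with 2 Pxr-/- mice above the lowest Pxr+/+ mouse, and the probe was well above background in all 12. The log2 change was -0.57 ± 0.18 (SE, n = 6 and 6; limma adjusted p = 0.0857). Which part of the gene the allele lacks is not in the sources used here, so this probe, which may lie outside it, checks no label.

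Across 21877 genes tested, 74 were higher (0.338%) and 189 lower (0.864%) in Pxr-/- than in Pxr+/+ ATB males (limma, false discovery rate of 0.05 or less and fold change above 1.2 for at least 1 probe). The median change over all tested probes was -0.13 on the log2 scale. With quantile normalization the median was -0.01, 159 genes were higher (0.727%) and 34 lower (0.155%), so that 17.6% of the calls were lower in place of 71.9%. All 74 genes called higher were called higher there too, whereas 34 of the 189 called lower remained lower. The number called lower also turned on single mice: it was 44 without Pxr-/- replicate 2, 57 without Pxr+/+ replicate 3 or replicate 5, 85 without Pxr-/- replicate 6 and 410 without Pxr-/- replicate 5. It was 100 without Pxr+/+ replicate 1, 112 without Pxr+/+ replicate 4 and 113 without Pxr-/- replicate 3. The number called higher was 46 without Pxr+/+ replicate 3, 47 without Pxr-/- replicate 2 and 49 without Pxr+/+ replicate 5, and at most 73. Under all 6 scalings plotted, 62 genes were called higher and 11 lower.

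The groups did not overlap, by the brightest probe of a gene, in 68 genes that were higher (0.311%) and 686 that were lower (3.14%), and in 203 (0.928%) and 74 (0.338%) with quantile normalization. Among the called genes, 52 higher (0.238% of genes tested) and 126 lower (0.576%) did not overlap. An unadjusted p under 0.05 was reached by 6070 genes (27.7%) for at least 1 probe. For the brightest probe, which gave the list values below, it was reached by 5012 of the 21877 genes.

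**Figure D1:**
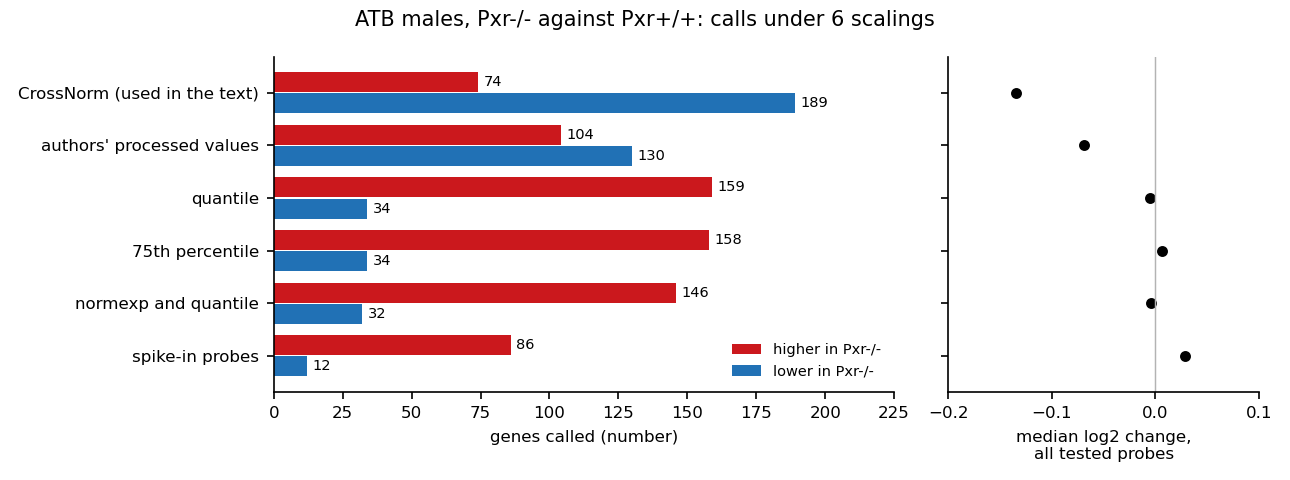
Left, number of genes called higher (red) and lower (blue) in Pxr-/- against Pxr+/+ ATB males under 6 ways of scaling the arrays, with the counts beside the bars. Right, the median log2 change over all tested probes under each. Lower genes outnumber higher genes (189 and 74) where the median change is -0.13, and are outnumbered (34 and 159) where it is -0.01.

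Of the genes that rose, 6 belonged to the Cyp3a cluster. Cyp3a enzymes oxidize steroids, bile acids and a wide range of drugs, and Cyp3a11 is the member most used as a readout of PXR activity in mouse liver. Cyp3a11 (probe across an exon junction, mm9, chr5:146672058-146673925) had log2 signals of 13.85 (lowest), 14.57 (median) and 15.10 (highest) in Pxr-/- ATB males, and of 11.88, 11.99 and 12.55 in Pxr+/+ ATB males. The lowest Pxr-/- mouse lay well above the highest Pxr+/+ mouse. The log2 change was 2.40 ± 0.17 (SE, n = 6 and 6; limma adjusted p = 3.38e-13), a 5.26-fold higher level, and it was 2.46, 2.35 and 2.29 within the 3 wash batches.

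Cyp3a16 and Cyp3a41a, of the same cluster and both counted among the female-biased genes below, changed nearly as much. Cyp3a16 ran from 13.37 through a median of 14.06 to 14.44 in Pxr-/- mice and from 11.23 through 11.68 to 11.93 in Pxr+/+ mice (log2 change 2.35 ± 0.17, limma adjusted p = 3.38e-13). Cyp3a41a ran from 16.45 through 17.17 to 17.29 against 14.61, 15.16 and 15.37 (1.95 ± 0.13, 1.07e-13). Neither pair of groups overlapped, and on all 6 slides the Pxr-/- array was the higher one.

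Cyp3a59 followed, at 13.80, 14.29 and 14.65 in Pxr-/- and 12.29, 12.49 and 12.74 in Pxr+/+ mice (1.70 ± 0.14, limma adjusted p = 2.24e-11). Cyp3a25 rose by 1.03 ± 0.16 (0.000101) and Cyp3a57 by 1.08 ± 0.15 (1.26e-05), with no overlap in either. Cyp3a59 thus changed by more than Cyp3a25 and Cyp3a57, with which it shares the AGGTCA copies and most of the sequence printed above. Of the other family members tested, Cyp3a13 had a change of 0.04 (adjusted p = 0.901), and Cyp3a44 was not well above background in any of the 12 mice. The 60-base probes of Cyp3a25 and Cyp3a57 share a run of 29 bases, so their signals may be partly the same transcripts. The other pairs of Cyp3a probes shared runs of 4 to 7 bases, but how far each probe also binds other family members was not tested.

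**Figure D2:**
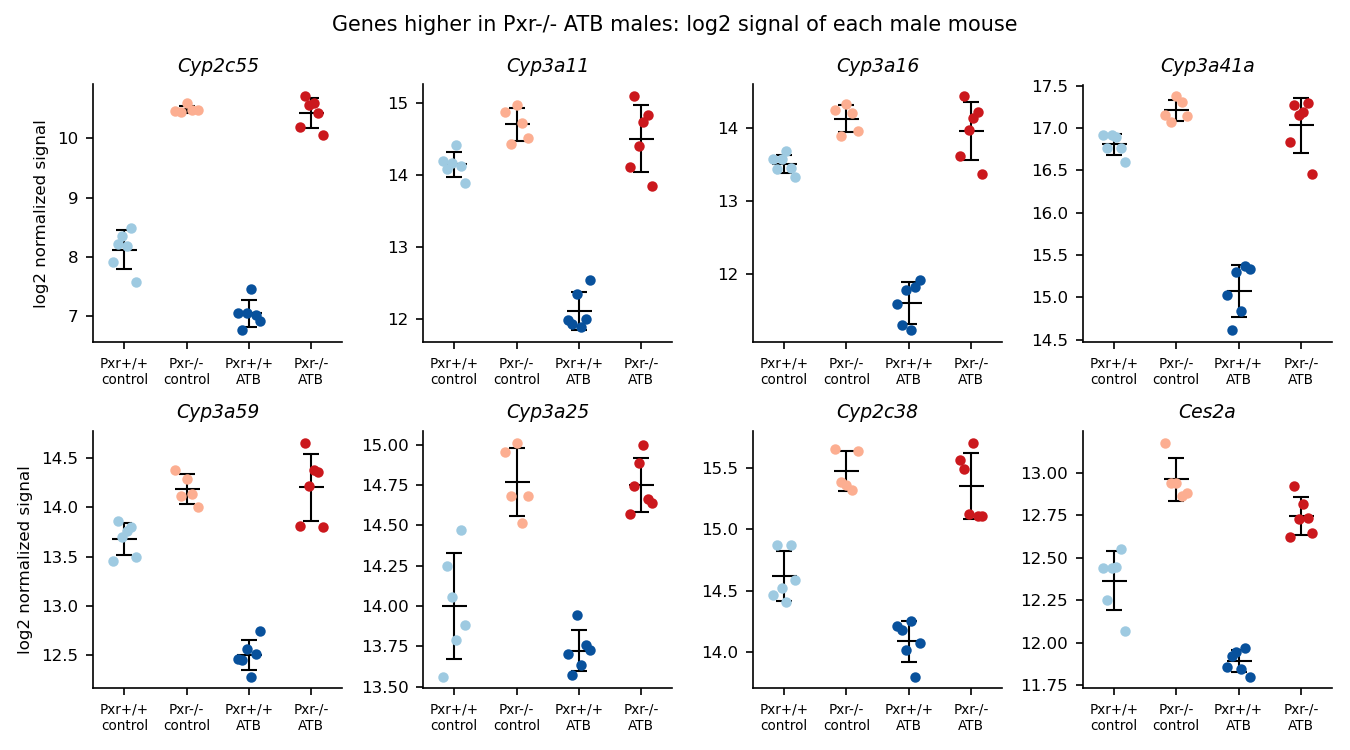
Log2 normalized signal (vertical axis, a separate range for each gene) of 8 genes that were higher in Pxr-/- ATB males, in the 4 groups of males. Each point is a mouse, the long tick is the group mean and the bar is 1 SD. In Cyp3a11, Cyp3a16, Cyp3a41a and Cyp3a59 the Pxr+/+ ATB males (dark blue) lie below the other 3 groups, whereas in Ces2a and Cyp2c38 both Pxr-/- groups lie above both Pxr+/+ groups.

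The same 4 genes, Cyp3a11, Cyp3a16, Cyp3a41a and Cyp3a59, were the ones in which the effect of PXR loss differed between ATB and control males (4 of 21877 genes, 0.0183%, all with the larger effect in ATB males). In control males their log2 changes were 0.56 ± 0.18, 0.62 ± 0.18, 0.40 ± 0.14 and 0.50 ± 0.15, and none was called (limma adjusted p = 0.601, 0.338, 0.723 and 0.395). The differences between the effects were 1.84 ± 0.25 for Cyp3a11 (limma adjusted p = 9.17e-05), 1.73 ± 0.25 for Cyp3a16 (0.000136), 1.55 ± 0.19 for Cyp3a41a (1.58e-05) and 1.2 ± 0.21 for Cyp3a59 (0.00672). The difference was called for these 4 genes under every alternative tried except the fit of the compared groups alone, where 4 genes were called and their names were not compared. In 0 genes was the effect smaller or more negative with ATB by this test. At an unadjusted p under 0.05, 1494 of the 21877 genes had a lower value and 188 a higher one, and the median difference was itself -0.09.

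The levels of single mice show where the groups part. Cyp3a11 ran from 14.43 to 14.98 in Pxr-/- control males, close to the 13.85 to 15.10 of Pxr-/- ATB males. In Pxr+/+ males it ran from 13.89 to 14.42 without ATB, above all Pxr+/+ ATB males. Expressed as the effect of ATB, Cyp3a11 fell by 2.04 on the log2 scale in Pxr+/+ males (limma adjusted p = 1.21e-10), and the change in Pxr-/- males was -0.20 (0.889).

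Genes of the Cyp2c family, which oxidize fatty acids, steroids and drugs, also rose. Cyp2c55, a fatty acid hydroxylase and a known target of PXR, had the largest change of any gene whose groups did not overlap: 10.06, 10.49 and 10.71 in Pxr-/- against 6.77, 7.04 and 7.46 in Pxr+/+ ATB males (log2 change 3.37 ± 0.25, limma adjusted p = 4.61e-13). Its other probe gave 2.74 ± 0.21. The change was 2.36 ± 0.26 in control males and 3.03 ± 0.25 in ATB females, both called, and the difference from control males was not called (1.01 ± 0.36, adjusted p = 0.841).

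Cyp2c38 rose by 1.27 ± 0.13 (limma adjusted p = 2.04e-08) and Cyp2c29 by 0.48 ± 0.09 (0.0024), again with no overlap. The pseudogene Cyp2c53-ps rose by 1.07 ± 0.16 (6.94e-05), with 1 Pxr-/- mouse at 6.21, within the Pxr+/+ range of 5.97 to 6.62. Cyp2g1, a P450 best known from nasal tissue, rose by 1.68 ± 0.37 (0.0138), a call that was lost without Pxr+/+ replicate 3. In all, 11 of 52 tested P450 genes of drug and steroid metabolism were higher and 0 lower, against 0.338% and 0.864% of all genes. Their median change was 0.03, against -0.13 over all genes, and 43 of the 52 lay above that all-gene median. Cyp2b10, the usual readout of the related receptor CAR, had a change of 0.62 (adjusted p = 0.247).

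Other enzymes of the first phase of detoxification rose in 3 of 43 genes, with 0 lower, against 0.338% and 0.864% of all genes. Akr1b7, an aldo-keto reductase that clears lipid aldehydes, went from 4.81, 4.96 and 5.20 in Pxr+/+ mice, where 4 of 6 were well above background, to 5.73, 6.89 and 7.04 in Pxr-/- mice (1.68 ± 0.24, limma adjusted p = 1.84e-05). Ces2a, a carboxylesterase that splits esters of drugs and lipids, rose by 0.86 ± 0.10 (4.34e-07), from a range of 11.80 to 11.97 to one of 12.62 to 12.92. Aldh1a1, which makes retinoic acid from retinal, rose by 0.59 ± 0.14 (0.0342). Akr1b7 and Ces2a did not overlap between the groups, whereas Aldh1a1 did, and its call was lost in 8 of the 12 repeats that left out 1 mouse.

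Among 58 conjugation genes, 3 were higher and 2 lower, against 0.338% and 0.864% of all genes. With quantile normalization 5 were higher and 1 lower, against 0.727% and 0.155%. Sult5a1, a sulfotransferase, rose from 7.49, 7.92 and 8.39 to 9.05, 9.63 and 9.75 (1.59 ± 0.24, limma adjusted p = 5.43e-05). Papss2, which makes the sulfate donor that sulfotransferases use, rose by 0.72 ± 0.13 (0.00108), and its other probe by 0.68. Gstm2, a glutathione transferase, rose by 0.60 ± 0.14 (0.0306), with overlapping groups, a call that was lost in 7 of the 12 repeats that left out 1 mouse and in the fit of the compared groups alone. In the other direction, Mgst3, a microsomal glutathione transferase, fell by 0.78 on the log2 scale (SE 0.15, limma adjusted p = 0.00358), and by 0.61 with quantile normalization (0.0193). The call of Mgst3 was lost with spike-in scaling. Tpmt, which methylates thiopurine drugs, had a change of -0.39 ± 0.09 (0.0315), and -0.22 with quantile normalization, where it was not called (0.285), and its call was also lost in 7 of the 12 repeats that left out 1 mouse. The median over the list was -0.12, close to that of all genes.

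The largest fall was in a transporter. Slco1a4, which takes organic anions such as bile salts and drug conjugates into hepatocytes, had log2 signals of 7.53, 8.25 and 8.46 in Pxr-/- and 10.1, 10.24 and 10.69 in Pxr+/+ ATB males. The groups were more than 1 unit apart. The change was -2.21 ± 0.20 (limma adjusted p = 3.14e-10), or 4.63-fold lower, and -2.04 with quantile normalization (2.65e-09). It was -2.92 ± 0.21 in control males, and -0.06 ± 0.20 in ATB females, where both genotypes ran from 10.98 to 12.03. The effect in ATB males was more negative than in ATB females by 2.15 ± 0.29 (limma adjusted p = 2.48e-05). One probe of Slc10a1, the main importer of bile salts, changed by -0.43 ± 0.11 (0.0382), a call lost in 8 of the 12 repeats that left out 1 mouse, but its far brighter probe changed by -0.05 (0.607). Those were the only 2 of 27 transporters called, both lower, against 0.864% of all genes called lower. With quantile normalization 1 transporter was higher and 1 lower, against 0.727% and 0.155%.

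Against 0.864% of all genes called lower, the single call among 15 genes of bile acid synthesis and conjugation was Cyp39a1. It hydroxylates 24-hydroxycholesterol on the way to bile acids, and ran at 9.55, 9.58 and 9.99 in Pxr-/- against 10.59, 10.92 and 11.49 in Pxr+/+ ATB males, with no overlap (-1.29 ± 0.17, limma adjusted p = 3.66e-06; quantile -1.12, 7.19e-05). In control males its change was -0.24 ± 0.18 (0.997), and the difference between those effects was not called (-1.04 ± 0.25, adjusted p = 0.837). The difference from ATB females was called (-1.19 ± 0.24, limma adjusted p = 0.0404).

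Among 40 nuclear receptors and partners, 2 were called, both lower, against 0.864% of all genes called lower. With quantile normalization 1 of the 40 was higher and 0 lower, against 0.727% and 0.155%. Nr1i3, which encodes CAR, changed by -0.62 ± 0.15 (limma adjusted p = 0.0344) for 1 of its 2 probes, and by -0.47 with quantile normalization, where it was not called (0.182). Its call was lost in 10 of the 12 repeats that left out 1 mouse. Its other, brighter probe had a change of -0.50 (0.0582).

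**Figure D3:**
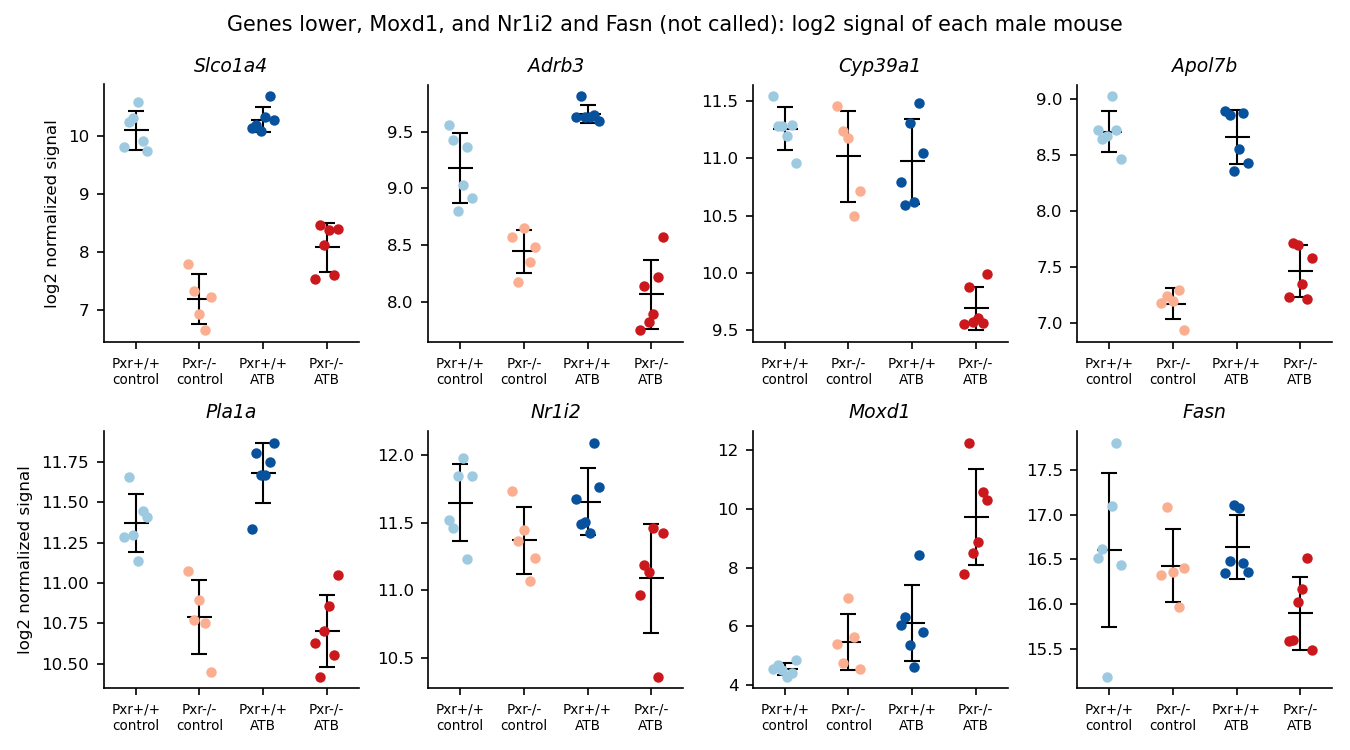
Log2 normalized signal (vertical axis, a separate range for each gene) in the 4 groups of males for 5 genes that were lower in Pxr-/- ATB males (Slco1a4, Adrb3, Cyp39a1, Apol7b, Pla1a), for Moxd1, which was higher, and for Nr1i2 and Fasn, which were not called. Each point is a mouse, the long tick is the group mean and the bar is 1 SD. Slco1a4 and Apol7b are lower in both Pxr-/- groups, whereas Cyp39a1 is lower in the Pxr-/- ATB males (dark red) than in the other 3 groups.

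Further genes that fell without overlap had other roles. Adrb3, the beta-3 adrenergic receptor, ran at 7.75, 8.02 and 8.57 in Pxr-/- and at 9.60, 9.63 and 9.81 in Pxr+/+ ATB males (-1.59 ± 0.17, limma adjusted p = 3.49e-08; quantile -1.42), and its other probe changed by -0.55. Apol7b, an apolipoprotein L, changed by -1.19 ± 0.14 (1.79e-07; quantile -1.04), and by -1.53 ± 0.15 in control males. Rdh16f2, of a family of retinol and steroid dehydrogenases, changed by -0.81 ± 0.11 (3.19e-06; quantile -0.66). Sgce, a sarcoglycan, changed by -0.99 ± 0.19 (0.00266; quantile -0.82, 0.0106). These 4 genes were lower on all 6 slides.

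The gene 1810046K07Rik changed by -1.31 ± 0.29 (limma adjusted p = 0.0144) and Emp2, a membrane protein of epithelial cells, by -0.89 ± 0.18 (0.00582). Both stayed called with quantile normalization and lost their calls with spike-in scaling. Ell3, an elongation factor (-0.96, 0.0478), and the transcript Gm29856 (-0.79, 0.0422) were not called with quantile normalization and lost their calls in 10 of the 12 repeats that left out 1 mouse.

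The remaining genes with the largest rises were of mixed function. Adamtsl1, a secreted matrix protein, rose by 2.01 ± 0.17 (limma adjusted p = 3.52e-11), from 5.57, 6.05 and 6.56 to 7.80, 8.08 and 8.32, and its other probes, both dimmer, had changes of 0.68 (0.0217) and 0.26 (0.133, not called). Pla2g12a, a secreted phospholipase, rose by 1.77 ± 0.19 (3.74e-08), from 8.56, 8.78 and 9.04 to 10.30, 10.58 and 10.78. Dio1, the liver deiodinase that makes active thyroid hormone, rose by 1.72 ± 0.31 (0.00114), and all 3 of its probes were called. None of the 3 genes overlapped between the groups.

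Rarres1, a retinoid-responsive gene, rose by 1.49 ± 0.22 (limma adjusted p = 3.15e-05), and the unnamed transcript Gm32872 by 2.00 ± 0.29 (2.25e-05). Meig1, known from meiotic cells, rose by 1.98 ± 0.18 (8.84e-11) and Tmeff2, a transmembrane protein, by 1.87 ± 0.21 (7.97e-08). The last 2 were dim in Pxr+/+ mice, with 4 and 3 of 6 mice well above background, so the size of their rise is less sure. All 4 genes were also called higher in control males.

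Most genes called higher in ATB males had positive changes in control males, and fewer were called there. Of the 74 genes called higher in ATB males, 71 (95.9%) had a positive change in control males, against 34.6% of all genes, and 28 were called there, which is 37.8% of the ATB male calls and 80% of the 35 genes called higher there (0.16% of genes tested). In ATB females 72 of 74 had a positive change and 23 were called, 31.1% of the ATB male calls and 59% of the 39 genes called higher there (0.178%). Of the 189 genes called lower, 163 (86.2%) had a negative change in control males, against 65.4% of all genes, and 5 were called, of 7 called lower there (0.032%). In ATB females 139 (73.5%) had a negative change, against 50.3% of all genes, and 5 were called, of 11 called lower there (0.0503%). These comparisons share no mice. That a gene was called in ATB males and not in control males does not show a difference, which only the 4 Cyp3a genes passed.

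Between ATB males and ATB females the effect differed for 12 genes, 6 with the larger value in males (0.0274%) and 6 with the smaller (0.0274%). The 6 were the 4 Cyp3a genes, with differences from 1.16 ± 0.20 (Cyp3a59, limma adjusted p = 0.00515) to 1.96 ± 0.24 (Cyp3a16, 5.38e-06), Meig1 (1.58 ± 0.25, 0.000768) and Moxd1 (3.67 ± 0.66, 0.00681). Meig1 was dim in ATB females (4.54 to 5.04 in Pxr-/- and 4.09 to 4.61 in Pxr+/+), so the size of its difference is less sure. Slco1a4, Cyp39a1 and Rdh16f2 (-0.73 ± 0.15, 0.0494) lay on the other side, with Dtnb (-0.55 ± 0.11), Ankle2 (-0.54 ± 0.10) and Sult2a5. For Sult2a5, a female-abundant sulfotransferase, no ATB male was well above background, so its difference of -2.49 comes from the females alone, where it rose by 2.43 ± 0.34. The number of called differences was 5 with the processed signal less the 75th percentile and 7 with spike-in scaling or with those 4 groups fitted alone.

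Moxd1, a copper-dependent monooxygenase-like gene, had the largest change of all called genes and a wide spread. Its log2 signal ran from 7.77 through a median of 9.59 to 12.25 in Pxr-/- ATB males and from 4.61 through 5.94 to 8.44 in Pxr+/+ ATB males. One Pxr+/+ mouse at 8.44 lay within the Pxr-/- range, and 5 of the 6 Pxr+/+ mice were well above background. The change was 3.61 ± 0.46 (limma adjusted p = 1.92e-06). In control males the signal stayed between 4.29 and 6.97, and the difference between the effects in ATB and control males was 2.70 ± 0.67 (adjusted p = 0.841), not called.

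Genes with a known sex bias held 5 calls, against 0.338% of all genes called higher and 0.864% lower. Of 25 male-biased liver genes 2 were higher, Moxd1 and Cspg5 (0.65 ± 0.17, limma adjusted p = 0.0468), with a list median of 0.09 and 24 of the 25 above the all-gene median. The call of Cspg5 was lost in 9 of the 12 repeats that left out 1 mouse, with no filter, with no wash batch, with the replicate block and in the fit of the compared groups alone, and its other probe changed by -0.0056 (adjusted p = 0.986). Of 27 female-biased genes 2 were higher, Cyp3a16 and Cyp3a41a, and 1 was lower, Nipal1, a magnesium transporter (-1.38 ± 0.33, 0.0298, lost with quantile normalization and in 6 of the 12 repeats that left out 1 mouse), with a list median of -0.15. Of 17 genes of growth hormone signalling, which sets the sex bias of the liver, Igfbp2, a binding protein of insulin-like growth factors, rose by 0.96 ± 0.17 (0.00108), from 13.42, 13.89 and 14.45 to 14.50, 14.92 and 15.29.

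Genes of lipid synthesis had lower values in Pxr-/- ATB males, and none passed the test. The median of 26 genes of sterol synthesis and uptake was -0.40 (-0.25 with quantile normalization, against medians over all genes of -0.13 and 0.0016). All but 2 of the 26 lay below the all-gene median. An unadjusted p under 0.05 was reached by 13 of the 26, against 5012 of all 21877 genes. The mean log2 signal of the list ran from 12.51 to 13.26 in Pxr-/- and from 13.14 to 13.39 in Pxr+/+ mice. In control males the median of the same list was -0.05, near that of all genes there (-0.04).

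For 33 genes of fatty acid and triglyceride synthesis the median was -0.34 (-0.20 with quantile normalization), with 0 called. At an unadjusted p under 0.05 there were 11, against 5012 of all 21877 genes. Fasn, the fatty acid synthase, ran at 15.49, 15.81 and 16.51 in Pxr-/- and 16.35, 16.47 and 17.11 in Pxr+/+ ATB males (-0.74 ± 0.30, limma adjusted p = 0.155), with overlapping groups. The elongases of long-chain fatty acids had changes of -0.59 ± 0.18 (Elovl5, 0.0778), -0.39 ± 0.14 (Elovl2, 0.118) and 0.44 ± 0.35 (Elovl3, 0.424). Elovl5 was called when Pxr-/- replicate 4 was left out. Cidea, a lipid droplet protein, had the highest value of the list at 1.56 (adjusted p = 0.0705). Of 39 PPARA targets, which burn fatty acids, and 21 genes of glucose metabolism, 0 were called, with medians of -0.14 and -0.27. In these lists 10 and 8 genes had an unadjusted p under 0.05, set beside the same 5012 of 21877.

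**Figure D4:**
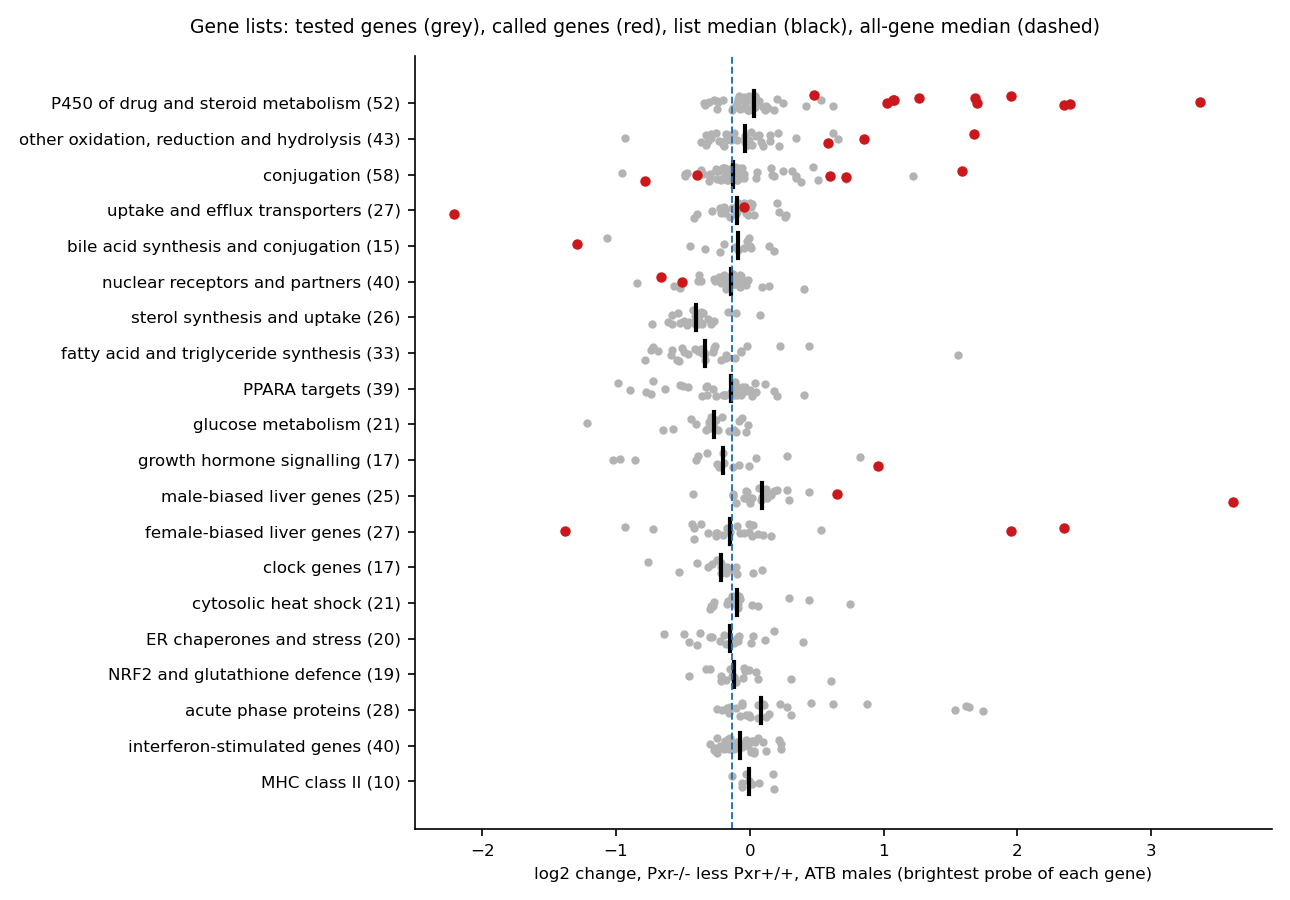
Log2 change (Pxr-/- less Pxr+/+, ATB males) of each tested gene in 20 lists, by the brightest probe of the gene, with the number of genes tested in parentheses. Red points are called genes, black ticks are list medians and the dashed line is the median of all genes (-0.13). Slc10a1 and Nr1i3 are red through a probe that is not their brightest. Called genes gather in the P450 list, and the 2 lipid synthesis lists lie to the left of the line with no call.

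Called genes were found near the targeted locus. Within 20 Mb of the Nr1i2 probe on chromosome 16, 15 of 335 tested genes were lower (4.48%) and 2 higher (0.597%), against 0.774% and 0.34% on all other chromosomes, and 2.72% and 0% on the rest of chromosome 16. With quantile normalization 7 of the 335 were lower (2.09%), against 0.113% on all other chromosomes and 0.817% on the rest of chromosome 16. There 4 of the 335 were higher, against 153 of 21175 genes on all other chromosomes and 2 of 367 on the rest of chromosome 16. Pla1a, a phospholipase 0.15 Mb from the Nr1i2 probe, ran at 10.42, 10.67 and 11.05 in Pxr-/- against 11.33, 11.71 and 11.86 in Pxr+/+ ATB males (-0.98 ± 0.13, limma adjusted p = 8.64e-06). The groups did not overlap.

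About 6 Mb to the other side, Senp5, a SUMO protease (-0.92 ± 0.12, limma adjusted p = 1.34e-06), and Pigx, of the machinery that anchors proteins to the membrane (-1.22 ± 0.18, 2.91e-05, and -0.94 for its other probe), were lower. Tctex1d2, a dynein light chain, was higher nearby (0.68 ± 0.14, 0.00592), as was Ift57, of the cilium, at 11.52 Mb (1.38 ± 0.26, 0.00172, with overlapping groups). Abhd10, a thioesterase (-0.61 ± 0.10, 0.000499), A130072N09Rik (-1.23 ± 0.23, 0.00242), Dubr (-0.61 ± 0.11, 0.00193) and AK035671 (-0.42 ± 0.09, 0.00857) also stayed called with quantile normalization. Of these, Abhd10, Dubr and AK035671 lost their calls with spike-in scaling, and Dubr and AK035671 also with normexp and quantile normalization. AK035671 was well above background in 6 Pxr+/+ and 0 Pxr-/- mice, so its change, -0.35 with quantile normalization, is only a bound. The other 8 genes, Dlg1, Pak2, Snx4, Hspbap1, Trp63, Slc35a5, Cmss1 and 1 unnamed transcript, had changes between -0.65 and -0.40 and were not called with quantile normalization. Senp5, Tctex1d2 and Ift57 were called the same way in control males and in ATB females. Whether the DNA around the targeted allele differs between the genotypes was not tested.

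No other list held a call with the exception of pancreatic acinar cells, in which Amy2a5, an amylase, changed by -0.55 ± 0.14 (limma adjusted p = 0.036) and by -0.38 with quantile normalization (0.181), a call lost in 10 of the 12 repeats that left out 1 mouse. Clock genes, cytosolic heat shock, ER chaperones, NRF2 targets, acute phase proteins, interferon-stimulated genes and MHC class II had 0 calls each. These lists of 17, 21, 20, 19, 28, 40 and 10 genes had 0, 2, 3, 4, 6, 0 and 0 at an unadjusted p under 0.05. Among all genes tested it was 5012 of 21877. In the acute phase list Saa1 and Saa2, the serum amyloid proteins, had changes of 1.64 (adjusted p = 0.15) and 1.62 (0.149), and the mean of the list ran from 12.99 to 14.12 in Pxr-/- and from 12.71 to 13.46 in Pxr+/+ mice. The 27 macrophage markers had a median change of 0.15, with 23 above the all-gene median and 0 called, and their mean ran from 8.51 to 10.27 in Pxr-/- and from 8.61 to 9.49 in Pxr+/+ mice. The other immune and stromal marker lists had 0 calls, and in liver RNA fewer cells of a type and less RNA per cell cannot be told apart.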

How the data were processed

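Total liver RNA of 47 mice was hybridized to 1-color arrays by the authors (Agilent Feature Extraction 10.10.1.1, per the labels). The deposited intensity of each spot is its median brightness on a linear scale, without background subtraction. The deposited log2 values, given for all samples together, had been filtered, corrected for wash batch and normalized with CrossNorm by the authors, and served as an alternative.

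From the median intensity, log2 values were taken, and a probe was kept if at least 5 arrays of any group read it well above background (32979 probes, 21877 genes). The wash batch was removed, CrossNorm was run with 100 random stacks of 1 array per group, and limma 3.58.1 (R 4.3.3, data.table version 1.17.8) was fitted to all 8 groups with the wash batch as a covariate. Figures were drawn with matplotlib 3.10.9. Spots marked non-uniform (100 on the 12 arrays) entered the normalization at their group mean and were left out of the fit. The authors' filter and stacking rules are not given in the sources used here. A gene was called at a Benjamini-Hochberg false discovery rate of 0.05 and a fold change above 1.2 for at least 1 probe, and its probe with the highest mean signal gave list values. All adjusted p-values are limma's, over all probes.

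Named genes were the 15 called genes with the largest change each way without overlap, genes whose effect differed between settings, the receptor, its main targets and lipid genes the study followed, called members of lists, and called genes within 20 Mb of Nr1i2. Members, lists and rules were chosen with earlier results of these data known. Per the study's methods each group was kept in 2 cages, with 3 mice per cage used for the arrays. Mice had been separated by sex and genotype after weaning, so no cage held mice of both genotypes. The labels do not tie mice to cages, so cage could not enter the fit. The SEs and p-values treat the mice of a group as independent, and a cage effect was not tested. On simulated data for 32813 probes of the ATB male comparison, 74% of 1.5-fold and 96% of 2-fold changes were called, with 12 false calls. The noise was drawn for each probe separately, with no shift of whole arrays, so this does not give the number of false calls in the real data. The 6 slides each held 1 array of both groups (wash batches 1, 2 and 3 with 3, 2 and 1 of each), and the number of arrays limits the precision. Of 1535 probes the symbol was updated by accession. A RefSeq promoter was matched by symbol for 51 of 74 genes called higher and 128 of 189 called lower. Values of some list members are not reported here.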

Additional observations from a re-analysis of the deposited data

Results flagged for a closer look

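In 142 groups of 6 mice tested, 10 had a mouse that lay apart from the other 5 by Dixon's criterion, and chance alone marks about 1 group in 20. These were Adrb3 in Pxr+/+ replicate 2 (log2 signal 9.81), 1810046K07Rik in Pxr-/- replicate 4 (7.32), Sgce in Pxr+/+ replicate 2 (9.13), Pla1a in Pxr+/+ replicate 1 (11.33), Ell3 in Pxr+/+ replicate 4 (7.87), Gm29856 in Pxr+/+ replicate 3 (6.85) and Sult2a5 in Pxr+/+ replicate 6 (3.95). The remaining 3 were Aldh1a1 in Pxr-/- replicate 6 (16.43), Trp63 in Pxr-/- replicate 2 (9.38) and Ift57 in Pxr+/+ replicate 5 (7.51), all in ATB males. At most 2 of the 10 belonged to a single mouse.

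The effect of PXR loss differed between ATB and control males by an interaction contrast for Cyp3a11 (1.84 on the log2 scale), Cyp3a16 (1.73), Cyp3a41a (1.55) and Cyp3a59 (1.2). Between ATB males and ATB females it differed for Moxd1 (3.67), Cyp3a16 (1.96), Cyp3a11 (1.89), Cyp3a41a (1.78), Meig1 (1.58) and Cyp3a59 (1.16), with the higher value in males. It differed with the lower value in males for Sult2a5 (-2.49), Slco1a4 (-2.15), Cyp39a1 (-1.19), Rdh16f2 (-0.73), Dtnb (-0.55) and Ankle2 (-0.54). The median difference between males and females over all probes was itself -0.14, and for Dtnb and Ankle2 1 of several probes carried the call.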

How the results depend on the processing

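The genes called higher and lower in ATB males (74 and 189) became 159 and 34 with quantile normalization, 158 and 34 with the processed signal less the 75th percentile, 146 and 32 with normexp and quantile normalization, and 86 and 12 with spike-in scaling, which was chosen after seeing the data. With the authors' values they were 104 and 130, and 55.6% of the calls were lower. With no filter 101 genes were called lower, 98 of them among the 189, and with no wash batch 113, all among the 189. Leaving out 1 mouse gave 46 to 73 higher and 44 to 410 lower. The count of differences from control males stayed at 4, or 5 without Pxr+/+ replicate 5. That from ATB females (12) was 5 with the processed signal less the 75th percentile, 7 with spike-in scaling, 7 with the compared groups alone and 9 to 13 with 1 mouse left out. No called change of a named gene turned its direction, but the median change over all tested probes (-0.1342) did, to 0.006041 with the processed signal less the 75th percentile and above 0 with spike-in scaling. The cause of these shifts was not tested. The replicate numbers did not pair the mice: same-numbered mice correlated from -0.116 to 0.172, and 0 of 6 correlated best with their own number. With the replicate block 67 genes were higher and 164 lower. Of 72 values for named genes, 18 lost their call with quantile normalization and 24 with spike-in scaling. Probes near background, such as Meig1, Tmeff2 and Akr1b7 in Pxr+/+ mice, limit the fold changes of dim genes.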
